A study of Oryza sativa with 12 samples.

Results

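PSY2, D17, D14 and D3 are 4 rice genes that lie along the route from carotenoids to the hormone strigolactone and its perception. They were picked by symbol or synonym from the gene names paired with the probe sets of an Affymetrix rice array, and they make up 4 of the 17905 genes paired with a probe set, of which 2450 have a name other than a locus number. Each had 1 probe set, so the choice of the brightest probe set per gene, which the selection asked for, changed nothing. The genes were proposed with results of these same arrays already known, so their differences between lines are given as descriptions, with standard errors (SE) and no p values. Tests are given for other genes of the pathway. The lists of these genes were also chosen with earlier results of the arrays known, so their p values and counts carry the same limit.

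Signals were measured in shoots of 4 lines at 5 weeks after germination, all grown in a greenhouse, with 3 biological replicates per line and 1 array per replicate. The lines were gid1-3, a mutant of the soluble gibberellin receptor GID1, gid2-1, a mutant of the F-box protein GID2 that targets DELLA repressors for degradation, slr1 (k1001), a mutant of the rice DELLA protein SLR1, and Taichung 65 (T65), the parental cultivar in whose background all 3 mutants stand. Each mutant is a single allele, and the labels do not say whether slr1 (k1001) has lost or gained function. They also give neither the number of plants in a replicate nor the time of day of harvest. Values are linear intensities as mean ± SD with n = 3, and differences are on the log2 scale ± SE. In whole shoots, fewer cells of a type and less RNA per cell cannot be told apart.

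Phytoene synthase makes phytoene, the first carotenoid, from geranylgeranyl diphosphate, which in plastids comes from the MEP pathway. Carotenoids protect the photosynthetic apparatus and are cleaved into hormone precursors: one branch leads over zeaxanthin epoxidase to abscisic acid, another over the carotenoid isomerase D27 and the cleavage dioxygenases D17 (CCD7) and D10 (CCD8) to strigolactones, which restrain the outgrowth of tillers. The receptor D14, an alpha/beta hydrolase, binds strigolactone and with the F-box protein D3 marks the repressor D53 for degradation. Rice mutants of D17, D14 and D3 are dwarfs with many tillers. D10 was paired with no probe set, and the names D27 and D53 were not matched in the gene tables, so these 3 genes were not analysed here.

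Of the 4 genes, 2 lay below T65 in all 3 mutants and 2 lay above it. PSY2 and D17 were lower in each mutant, and D14 and D3 were higher in each by their mean. The extremes fell in different lines: PSY2 was lowest in gid2-1, D17 was lowest in gid1-3, and both D14 and D3 were highest in slr1. The arrays of the mutant and of T65 did not overlap for 4 of 4 genes in gid1-3, 3 of 4 in gid2-1 and 4 of 4 in slr1. Among all 57194 probe sets tested, 42.1%, 37.8% and 34.1% showed no overlap in these comparisons. Between gid1-3 and gid2-1 the arrays did not overlap for PSY2 and D17, 2 of 4 genes, against 32.1% of all probe sets. On every array all 4 genes were brighter than the 95th percentile of the array's 64 reporter controls, probe sets for foreign genes, which ran from 28.3 to 52.2 over the 12 arrays.

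**Figure D1:**
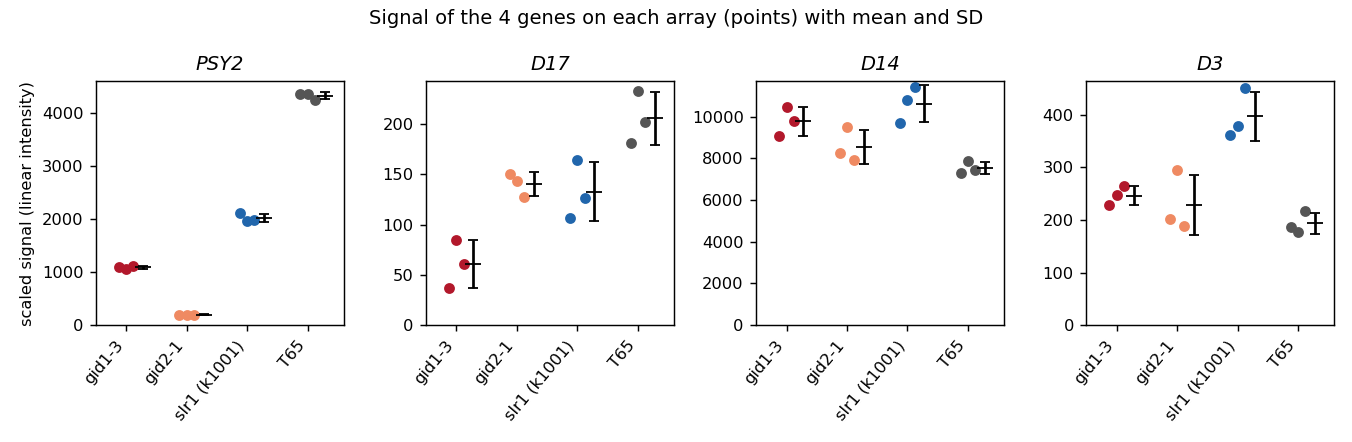
Scaled signal (linear intensity) of PSY2, D17, D14 and D3, 1 point per array, for gid1-3, gid2-1, slr1 (k1001) and T65, with the mean and SD of 3 arrays beside the points. The 4 lines do not overlap for PSY2, whereas for D17 gid2-1 and slr1 overlap, and for D14 and D3 several neighbouring lines do.

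PSY2 (LOC4352846), 1 of the phytoene synthase genes of rice, showed the widest range of the 4 genes. Its signal was 1101, 1059 and 1123 on the gid1-3 arrays, 200.2, 190.9 and 199.2 on the gid2-1 arrays, 2122, 1975 and 1979 on the slr1 arrays, and 4376, 4371 and 4257 on the T65 arrays. The lines thus stood in the order gid2-1, gid1-3, slr1 and T65 from low to high, and no array of one line reached the range of the next. The spread within a line was small, with coefficients of variation between 1.55% in T65 and 4.12% in slr1.

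The mean of PSY2 was 1094 ± 32.4 in gid1-3, 3.96-fold below the 4335 ± 67.1 of T65 (log2 difference -1.99 ± 0.06). In gid2-1 it was 196.7 ± 5.10, 22-fold below T65 (-4.46 ± 0.06), and only 47 of the 57194 probe sets had a lower difference in that comparison. In slr1 the mean was 2025 ± 83.4, 2.14-fold below T65 (-1.10 ± 0.06). Between the receptor mutant and the F-box mutant the difference was 2.48 ± 0.06, with gid1-3 at 5.56 times the signal of gid2-1. The probe set of PSY2 is of the kind designed to match several transcripts of one gene, so isoforms cannot be told apart.

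**Figure D2:**
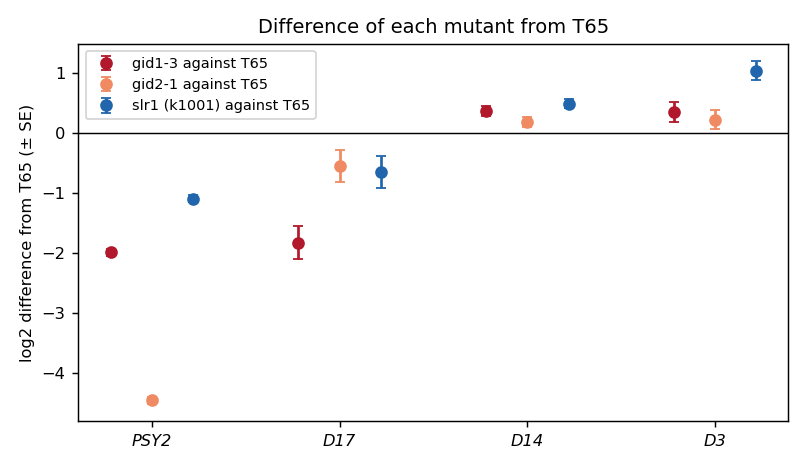
Log2 difference (± SE, 3 arrays per line) of gid1-3, gid2-1 and slr1 (k1001) from T65 for PSY2, D17, D14 and D3. PSY2 ranges from -4.46 in gid2-1 to -1.10 in slr1, D17 is lowest in gid1-3 at -1.83, and D3 reaches 1.04 in slr1.

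The other phytoene synthases were measured too, and each of the 3 genes had its own pattern over the lines. PSY1, which in rice serves the green leaf together with PSY2, fell in gid1-3 to 1562 ± 83.5 and in gid2-1 to 1397 ± 69.0, against 3416 ± 128 in T65. The log2 differences were -1.13 ± 0.06 (adjusted p = 1.2e-09, limma) and -1.29 ± 0.06 (adjusted p = 3.1e-10), and the difference between the gid mutants was not called (0.16 ± 0.06, adjusted p = 0.081), though it was with dim probe sets left out (adjusted p = 0.043) and without replicate 3 of gid1-3 (adjusted p = 0.046). In slr1 PSY1 stood at 3511 ± 99.9, not called against T65 (0.04 ± 0.06, adjusted p = 0.77), while PSY2 was 2.14-fold below T65 on the same arrays. A second probe set of PSY1 gave log2 differences of -1.07 ± 0.08 and -1.24 ± 0.08 in gid1-3 and gid2-1, and the third, with T65 at only 123.8 ± 16.9, was not called in any comparison.

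PSY3, which in rice roots is linked to stress-induced abscisic acid formation, fell in gid1-3 to 1430 ± 92.6, against 3977 ± 319 in T65 (-1.47 ± 0.11, adjusted p = 5.9e-08). In gid2-1 it was 3128 ± 441 (-0.35 ± 0.11, adjusted p = 0.031). That call was lost under 5 of 14 other settings, among them leaving out replicate 1 or 3 of gid2-1 or of T65 (adjusted p up to 0.13). PSY3 was thus lower in gid1-3 than in gid2-1 by test (-1.12 ± 0.11, adjusted p = 2.4e-06), whereas PSY2 was lower in gid2-1. In slr1 PSY3 was 5134 ± 853 (0.36 ± 0.11, adjusted p = 0.036), a call lost under 6 of 14 other settings, among them leaving out replicate 3 of slr1 or replicate 1 or 2 of T65 (adjusted p up to 0.17).

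**Figure D3:**
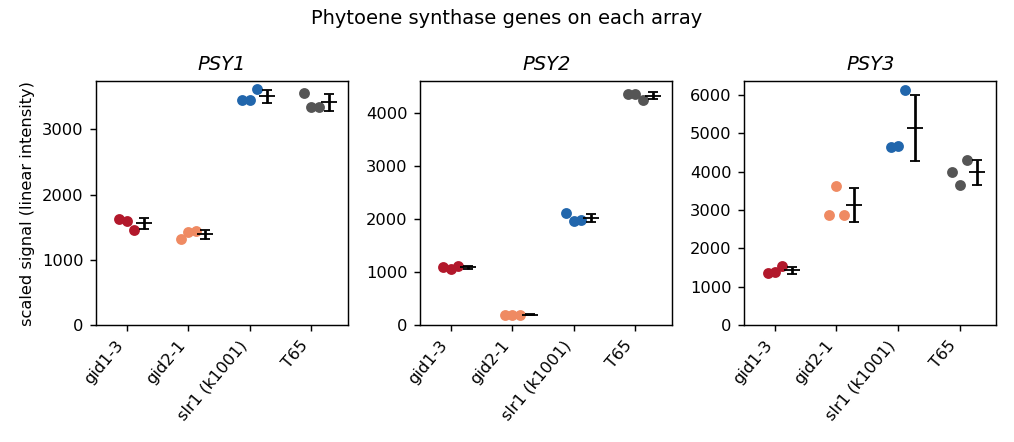
Scaled signal (linear intensity) of the phytoene synthase genes PSY1, PSY2 and PSY3 on each array (points) with mean and SD of 3 arrays, for gid1-3, gid2-1, slr1 (k1001) and T65. PSY1 is low in both gid mutants, PSY2 is lowest in gid2-1 and PSY3 is lowest in gid1-3 (signals of different probe sets are not comparable with each other).

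Further down the carotenoid route, ZEP, zeaxanthin epoxidase, fell to similar levels in both gid mutants. It measured 1709 ± 124 in gid1-3 and 1631 ± 126 in gid2-1, against 3083 ± 151 in T65 (-0.85 ± 0.07, adjusted p = 1.6e-07, and -0.92 ± 0.07, adjusted p = 8.5e-08). In slr1 it stood at 3053 ± 107 (-0.01 ± 0.07, adjusted p = 0.95). PDS, the desaturase that acts on phytoene, was not called in gid1-3 (-0.09 ± 0.07, adjusted p = 0.39), but was called lower there after centring on spiked controls (-0.32, adjusted p = 0.006). It was 3961 ± 128 in gid2-1, against 3273 ± 191 in T65 (0.28 ± 0.07, adjusted p = 0.0052). That call did not hold under 3 of 14 other settings: centring on array medians, centring on spiked controls, and a constant prior variance (adjusted p from 0.051 to 0.57). The carotenoid synthesis list beside PSY2 thus held 4 measured genes, with 3 called lower and none higher in gid1-3, 3 lower and 1 higher in gid2-1, and 1 higher in slr1. Among all probe sets, 14.1% were called higher and 15.4% lower in gid1-3, 13.7% and 12.4% in gid2-1, and 9.1% and 10.8% in slr1.

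Of the MEP pathway, which supplies the precursor, 5 genes were measured: gid1-3 had 4 called higher and 1 lower, gid2-1 had 1 higher and 3 lower, and slr1 had 3 higher. Of all probe sets, 14.1% were called higher and 15.4% lower in gid1-3, 13.7% and 12.4% in gid2-1, and 9.1% and 10.8% in slr1. Of the slr1 calls, that of ISPF was lost under 9 of 14 other settings, among them leaving out any 1 array of slr1 or T65, and that of ISPH under 4. ISPF in gid1-3 was lost under 4 of 14, among them leaving out replicate 1 of gid1-3. DXR, the reductoisomerase near the start of the pathway, fell in gid1-3 (-0.75 ± 0.06, adjusted p = 1.2e-07) and gid2-1 (-0.99 ± 0.06, adjusted p = 7.4e-09). ISPG and ISPH, the last enzymes of the pathway, fell in gid2-1 to 5314 ± 28.2 and 5245 ± 291, against 8437 ± 154 and 8762 ± 314 in T65 (adjusted p = 3e-08 and 6.3e-08). In gid1-3 they were 9653 ± 112 and 10890 ± 297, so that gid1-3 exceeded gid2-1 by 0.86 ± 0.05 (adjusted p = 3.3e-09) and 1.06 ± 0.06 (adjusted p = 2.3e-09). The rise of ISPG in gid1-3 over T65 (0.19 ± 0.05, adjusted p = 0.0048) was lost under 4 of 14 other settings, measuring 0.04 after quantile normalization and -0.03 with spiked controls. That of ISPH (0.31 ± 0.06, adjusted p = 0.00038) was lost with spiked controls, at 0.09. ISPE, a kinase of the pathway, rose in all 3 mutants (1.00 ± 0.13, 0.75 ± 0.13 and 0.51 ± 0.13, adjusted p = 1.6e-05, 0.00032 and 0.0091), the slr1 call being lost after centring on array medians (adjusted p = 0.068).

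D17 (LOC4336591), the carotenoid cleavage dioxygenase CCD7 that acts before D10 in strigolactone synthesis, was a dim gene. Its signal was 37.2, 84.9 and 60.5 on the gid1-3 arrays, 150.5, 143.4 and 126.9 on the gid2-1 arrays, 106.4, 164.5 and 126.5 on the slr1 arrays, and 181.1, 232.8 and 202.3 on the T65 arrays. All gid1-3 arrays lay below all others, and all T65 arrays lay above all others. The ranges of gid2-1 and slr1 overlapped, so no order can be given between these lines.

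D17 averaged 60.9 ± 23.9 in gid1-3, 3.55-fold below the 205.4 ± 26.0 of T65 (-1.83 ± 0.27). The 3 gid1-3 arrays stood close to the reporter level of their own arrays (33.2, 52.2 and 41.2), so the size of that difference is poorly resolved. In gid2-1 it averaged 140.3 ± 12.1 (-0.55 ± 0.27) and in slr1 132.5 ± 29.5 (-0.65 ± 0.27). Relative to gid2-1, gid1-3 was lower by a log2 difference of -1.28 ± 0.27. Relative spread was largest for D17 among the 4 genes in gid1-3, with a coefficient of variation of 39.2%, against 12.7% in T65.

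D10L (CCD8A), a homologue of the dioxygenase D10, ran in another order. It had 148.6, 87.8 and 91.1 on the gid1-3 arrays, 322.5, 320.7 and 373.2 on the gid2-1 arrays, 14.5, 22.6 and 30.7 on the slr1 arrays, and 70.7, 50.1 and 50.3 on the T65 arrays. The lines did not overlap, with gid2-1 highest and slr1 lowest. D10L rose in gid2-1 (2.59 ± 0.31, adjusted p = 1.1e-05) and was higher there than in gid1-3 (gid1-3 against gid2-1 -1.67 ± 0.31, adjusted p = 0.00097). Its rise in gid1-3 (0.91 ± 0.31, adjusted p = 0.04) was lost under 6 of 14 other settings, among them the replicate block and leaving out replicate 1 or 3 of gid1-3 or replicate 2 or 3 of T65 (adjusted p from 0.051 to 0.19). In slr1 it was called lower (adjusted p = 0.0047, and 0.068 with only the slr1 and T65 arrays), but all 3 slr1 arrays lay below their reporter level, so the size is not resolved. Only D10L of its list of cleavage and strigolactone synthesis genes was measured beside D17.

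On the abscisic acid branch 2 catabolic genes could be named on the array. ABA8OX1, an abscisic acid 8'-hydroxylase, rose in all 3 mutants, to 11830 ± 62.0 in gid1-3, 14550 ± 1300 in gid2-1 and 8214 ± 557 in slr1, against 5343 ± 171 in T65. The log2 differences were 1.15 ± 0.07 (adjusted p = 4.1e-09), 1.44 ± 0.07 (adjusted p = 3.9e-10) and 0.62 ± 0.07 (adjusted p = 9e-06). ABA8OX2, of the same family, fell in gid1-3 (-0.41 ± 0.07, adjusted p = 0.00044) and gid2-1 (-0.59 ± 0.07, adjusted p = 1.3e-05) and was not called in slr1 (-0.02 ± 0.07, adjusted p = 0.9).

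D14 (LOC4331983), the strigolactone receptor, was bright in every line. Its signal was 9090, 10480 and 9815 on the gid1-3 arrays, 8254, 9500 and 7926 on the gid2-1 arrays, 9711, 10800 and 11420 on the slr1 arrays, and 7322, 7891 and 7432 on the T65 arrays. All mutant arrays exceeded all T65 arrays, though the lowest gid2-1 array and the highest T65 array differed little (7926 and 7891). Among the mutants, gid1-3 overlapped with both others, while slr1 and gid2-1 did not overlap.

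D14 averaged 9795 ± 695 in gid1-3 and 10640 ± 866 in slr1, against 7548 ± 302 in T65 (0.37 ± 0.08 and 0.49 ± 0.08). In gid2-1 it averaged 8560 ± 830 (0.18 ± 0.08), a difference that was 0.10 without replicate 2 of gid2-1. These were the smallest differences in size among the 4 genes for gid2-1 and slr1, and only D3, at 0.35, was smaller in gid1-3. Before any centring, the median difference of all probe sets from T65 was 0 in gid1-3, 0.05 in gid2-1 and -0.02 in slr1. With every array centred on its spiked controls, that median was -0.23, -0.14 and -0.10. D14 then measured 0.15 in gid1-3, -0.02 in gid2-1 and 0.41 in slr1. The direction in gid2-1 therefore depends on the scaling.

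D3 (LOC9272469), the F-box protein of strigolactone signalling, had a signal of 227.4, 246.8 and 264.1 on the gid1-3 arrays and 200.9, 294.1 and 189.1 on the gid2-1 arrays. It had 362.0, 377.9 and 449.8 on the slr1 arrays and 186.3, 177.5 and 216.0 on the T65 arrays. The slr1 arrays lay above all 9 others. The gid2-1 arrays spanned the range of gid1-3 and overlapped with T65, since 1 of them stood well above the other two.

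D3 averaged 396.6 ± 46.8 in slr1, 2.05 times the 193.3 ± 20.1 of T65 (1.04 ± 0.16), and this was 0.94 to 1.12 without any 1 array. In gid1-3 it averaged 246.1 ± 18.3 (0.35 ± 0.16), or 0.12 with arrays centred on the spiked controls. In gid2-1 it averaged 228.0 ± 57.5 (0.22 ± 0.16), a difference that was 0.02 without replicate 2 of gid2-1 and also 0.02 with arrays centred on the spiked controls. Between gid1-3 and gid2-1 D3 differed by 0.14 ± 0.16 and D14 by 0.20 ± 0.08, with overlapping arrays in both cases.

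D14 and D3 shared the order of their line means, with slr1 highest, then gid1-3, gid2-1 and T65. Over the 12 arrays their log2 signals correlated at a Pearson r of 0.87, and at 0.72 after the line means were subtracted, in a set where 3 arrays share a line and each array shares 1 scaling. PSY2 correlated with D17, D14 and D3 at 0.22, -0.08 and 0.08, and at -0.50, -0.75 and -0.57 after the line means were subtracted. D17 correlated with D14 at -0.40, and at 0.65 after that step, and with D3 at -0.15 and 0.17. The synthesis and perception genes thus did not share 1 profile over the lines.

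Downstream of the receptor 3 further genes could be measured. IPA1 (SPL14), an SBP-box factor that restrains tillering and is a target of D53, fell in gid1-3 to 73.1 ± 15.7, against 164.7 ± 15.6 in T65 (-1.19 ± 0.22, adjusted p = 0.00052). It averaged 157.6 ± 41.3 in gid2-1 and 204.8 ± 21.9 in slr1 without a call in either line, and it was lower in gid1-3 than in gid2-1 by test (-1.10 ± 0.22, adjusted p = 0.0017). The gid1-3 arrays of IPA1 (56.3, 75.5 and 87.5) were not far above their reporter levels (33.2, 52.2 and 41.2), which limits these sizes. SPL7, another SBP-box factor, rose in slr1 to 171.7 ± 21.4, against 82.0 ± 19.6 in T65 (1.09 ± 0.27, adjusted p = 0.0095; 0.053 without replicate 1 of T65). TPR2, a TOPLESS-related corepressor of the kind that D53 recruits, fell in slr1 (-0.37 ± 0.10, adjusted p = 0.016). That call was lost under 5 of 14 other settings, among them leaving out replicate 2 or 3 of slr1 or replicate 1 of T65. A second TPR2 probe set, which can bind related transcripts, disagreed with the first in slr1, where the second was not called (0.08 ± 0.09). In the gid mutants both lay above T65. The second was called higher in gid1-3 (0.80 ± 0.09) and gid2-1 (0.33 ± 0.09). The first was not called there (0.23 ± 0.10 and 0.12 ± 0.10), except in gid1-3 with only the gid1-3 and T65 arrays (adjusted p = 0.0061, limma).

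Of 6 measured regulators of tillering and shoot form, 4 fell and none rose in gid1-3, 1 fell in gid2-1 and 1 fell in slr1. The 1 of 6 in gid2-1 and in slr1 is near the share of all probe sets called lower there (12.4% and 10.8%), against 15.4% in gid1-3. NAL1, a protease gene of leaf width, fell in gid1-3 (-0.77 ± 0.07, adjusted p = 6.7e-07) and gid2-1 (-0.67 ± 0.07, adjusted p = 3.7e-06). LA1, LAZY1 of tiller angle, and RFL, the rice LEAFY homologue, fell in gid1-3 (-0.67 ± 0.09, adjusted p = 3.7e-05, and -1.03 ± 0.23, adjusted p = 0.0024). RFL stood at 46.99, 58.32 and 52.35 on the gid1-3 arrays, close to their reporter levels (33.2, 52.2 and 41.2). The size of its fall is thus poorly resolved. In gid2-1 LA1 and RFL measured -0.11 ± 0.09 and -0.02 ± 0.23, and gid1-3 was lower than gid2-1 by test (adjusted p = 0.00036 and 0.0042). OSH1, a KNOX gene of the meristem, fell in gid1-3 and in slr1 (-1.48 ± 0.09, adjusted p = 4.4e-09, and -1.72 ± 0.09, adjusted p = 2.8e-09) and was not called in gid2-1 (-0.14 ± 0.09), except after centring on spiked controls (-0.33, adjusted p = 0.026). The other 2 genes were not called in any comparison, and 1 of them was above the reporter level on only 5 of the 12 arrays.

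**Figure D4:**
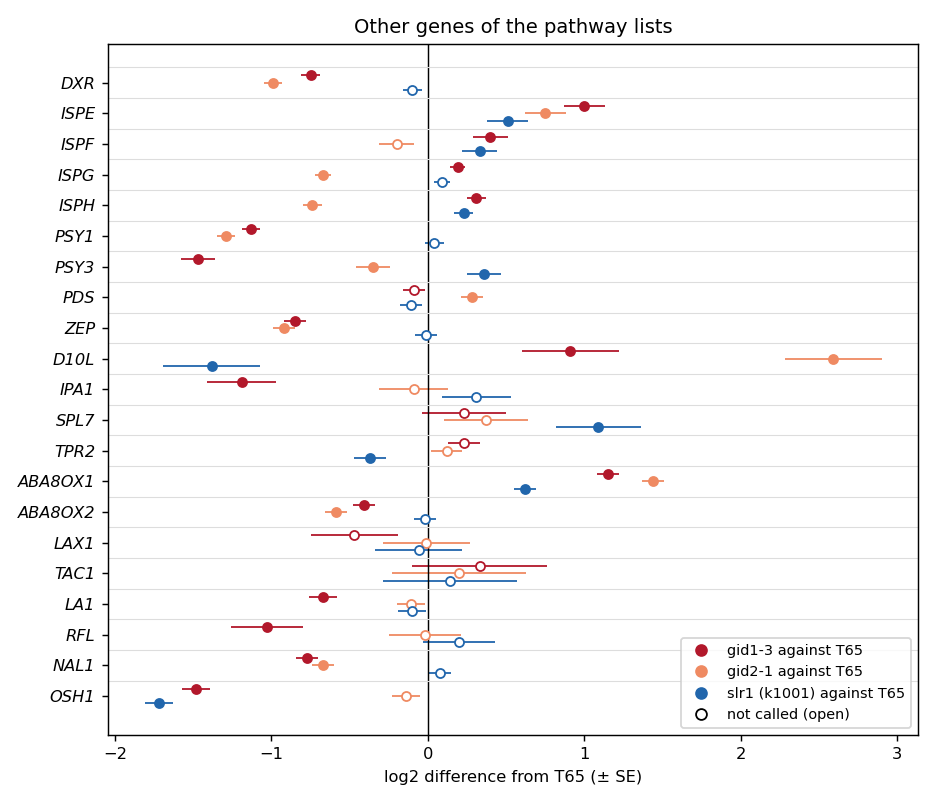
Log2 difference (± SE, 3 arrays per line) of gid1-3, gid2-1 and slr1 (k1001) from T65 for the 21 measured genes of the pathway lists other than the 4 described first. Filled points passed an adjusted p under 0.05 and open points did not. PSY1 and ZEP lie left of 0 in both gid mutants, ABA8OX1 lies right of 0 in all 3, and D10L runs from 2.59 in gid2-1 to below 0 in slr1, where its signal is below the reporter level.

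Over all 6 lists, 21 genes other than the 4 described first were measured. The gid1-3 line had 6 higher and 10 lower at an adjusted p under 0.05, where 14.1% and 15.4% of all probe sets were called higher and lower. The gid2-1 line had 4 higher and 8 lower (13.7% and 12.4% of all probe sets), and slr1 had 6 higher and 3 lower (9.1% and 10.8%). Leaving out replicate 1 of T65 reduced the 6 that rose in slr1 to 3. Between the gid mutants, 4 were higher and 8 lower in gid1-3 (9.06% and 12% of all probe sets). The median differences of the lists were -0.41 in gid1-3, -0.11 in gid2-1 and 0.08 in slr1, against 0, 0.05 and -0.02 for all probe sets. The 3 comparisons with T65 share the same control arrays.

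Genes with profiles most like those of the 4 genes were looked up among 2206 named genes at or above the median signal, by Pearson r of log2 signals over the 12 arrays. For PSY2 the closest were BGLU31 (r = 0.995), the tonoplast aquaporin TIP1 (0.992), TRX03, a thioredoxin of the f type (0.990), and BGLU19 (0.986). BGLU31 and BGLU19 belong to the beta-glucosidases. TIP1 measured 914.9 in gid1-3, 81.2 in gid2-1, 3744 in slr1 and 6886 in T65, the same order as PSY2. The profiles most opposed to PSY2 were those of TPP1, a trehalose-phosphate phosphatase (-0.989), and HIRL1 (-0.986), with TPP1 at 10590 in gid1-3, 13720 in gid2-1, 9375 in slr1 and 8110 in T65.

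The closest to D17 were the metal transporter ZIP5 (0.943), the cyclin-dependent kinase CDC2-1 (0.939), YSL14 (0.936) and IPP (0.927), with TRX18 (-0.919) and the response regulator RR6 (-0.912) at the other end. CDC2-1, also named CDKA;1, measured 1805 in gid1-3, 2704 in gid2-1, 2584 in slr1 and 2880 in T65. D14 was closest to GLO1, a glycolate oxidase of photorespiration (0.960), the thioredoxin TRXM5 (0.924), EXLA1 (0.922) and LP02 (0.920), also named OEE3 for an oxygen-evolving enhancer protein. LP02 was also the closest to D3 (0.956), followed by HK3, a histidine kinase of cytokinin perception (0.948), HCT2 (0.925) and FLO6 (0.920). LP02 measured 16820 in gid1-3, 15510 in gid2-1, 20470 in slr1 and 14060 in T65. The most opposed to D14 were SIZ2 (-0.978) and the clock gene PRR95 (-0.942), and to D3 rps20 (-0.967) and PSS2 (-0.965). These are the highest and lowest of many values, and arrays of a line share that line's mean.

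Markers of green tissue, roots and inflorescences were read on the same arrays to check the labelled tissue. Of 11 green-tissue genes 10 were above the reporter level on all 12 arrays, among them RBCS, RCA and CAB2R, and only RBCS1 was below it throughout. Of 10 root genes 5 and of 11 inflorescence and pollen genes 1 were above it on all arrays. In gid2-1, where PSY2 was lowest, 6 of the 11 green-tissue genes fell and 1 rose, where 12.4% and 13.7% of all probe sets were called lower and higher. In gid1-3, 3 rose and 2 fell, where 14.1% and 15.4% of all probe sets were called higher and lower. In slr1, 3 rose and 1 fell, against 9.1% and 10.8% of all probe sets. The numbers that fell in gid1-3 and slr1 are near those shares. The summed signal of the green-tissue genes ran from 67460 to 83860 in gid2-1, from 104000 to 111100 in gid1-3, from 101500 to 125400 in slr1 and from 92660 to 98450 in T65. Photosystem subunit PSAG and PORA, a protochlorophyllide reductase, had the largest falls of the list in gid2-1. They measured 814.3 and 1272 there, against 4946 and 4701 in T65. A second, dim PSAG probe set measured 112.7 in gid2-1 and 131.5 in T65. The 1 that rose in gid2-1 was CHLD (0.44 ± 0.07, adjusted p = 0.00015, limma). Not called there were RBCS (0.16 ± 0.16), FBA1 (-0.02 ± 0.05), CAB2R (-0.14 ± 0.09) and RBCS1. A second RBCS probe set was called lower (-0.40 ± 0.11, adjusted p = 0.013). The summed signal of the root list was highest in gid2-1, at 2445 to 2739 against 1283 to 1319 in T65. The silicon channel LSI1 made up 1643 of it in gid2-1 and 544.4 in T65. Of the 10 root genes, 3 were called higher in gid2-1 and 1 lower, against 13.7% and 12.4% of all probe sets. The lower gene was AMT1-2, at 96.3 against 196.5 in T65 (-1.04 ± 0.20, adjusted p = 0.00097, limma). The part of these markers in the level of PSY2 was not tested.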

How the data were processed

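Per the labels, total RNA of whole shoots was extracted with a column kit and labelled as biotinylated cRNA. Each deposited array column holds 1 intensity per probe set, linear in scale and with a trimmed mean of 500.1 on every array (2% of probe sets left out at each end). The software and detection calls are not given in the sources used here, and the median signal ran from 58.0 to 75.8. With a floor of 1, the deposited intensities were converted to log2 and not normalized again. After 187 controls were left out, 57194 probe sets were fitted with 1 mean per line over 12 arrays, using lmFit and eBayes (trended prior) of limma 3.58.1 under R 4.3.3, with Benjamini-Hochberg adjustment across them all. A gene was called at an adjusted p under 0.05. Of the probe sets, 22436 were paired with 1 gene, 95 with several and 34663 with none. The 3 arrays per line limit the precision.

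The 4 genes and the lists were chosen with earlier results of these arrays known. Of 123 names listed, 21 gave a measured gene, the brightest probe set standing for it. Where an unrelated gene shares a listed name, that gene was left out, as judged by its other names in the gene tables. Named are all measured genes of the carotenoid, cleavage and signalling lists, up to 4 of each other list by F-test, and for each of the 4 genes the 4 closest and 2 most opposed profiles. ISPF and the markers given singly were picked with their values known. The fit was also run on simulated data, but no result of that run is given here. Alternatives were quantile normalization, centring on medians or spiked controls, a filter on dim probe sets, log2 of signal plus 16, no trend, only the lines compared, a replicate block, averaged probe sets, a 2-fold threshold and leaving out each array. No coordinates or sequences are given, since no genome was used here.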

Additional observations from a re-analysis of the deposited data

Results flagged for a closer look

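Among the pathway genes, 4 were called in opposite directions against T65 in 2 mutants, with a called difference between those mutants by the same limma fit (n = 3 per line). The share of all probe sets with such opposite calls was not computed, so this count cannot be judged against it. ISPG and ISPH, of the MEP pathway, rose in gid1-3 and fell in gid2-1, with gid1-3 above gid2-1 by 0.86 ± 0.05 (adjusted p = 3.3e-09) and 1.06 ± 0.06 (adjusted p = 2.3e-09). The rise of ISPG in gid1-3 was lost under 4 of 14 other settings (-0.03 with spiked controls), and that of ISPH with spiked controls (0.09). ISPH was also higher in slr1 than in gid2-1, by 0.97 ± 0.06 (adjusted p = 3e-09), though its call against T65 in slr1 was lost under 4 of 14 settings. PSY3 was higher in slr1 than in gid1-3 by 1.83 ± 0.11 (adjusted p = 5.9e-09) and than in gid2-1 by 0.71 ± 0.11 (adjusted p = 0.00015), with its calls against T65 lost under 6 of 14 settings in slr1 and 5 of 14 in gid2-1. D10L against T65 in gid1-3 was likewise lost under 6 of 14. D10L was lower in slr1 than in gid1-3 by test (-2.29 ± 0.31, adjusted p = 3.3e-05), and the difference of slr1 from gid2-1 was -3.97 ± 0.31 (adjusted p = 1e-07), with the slr1 arrays below the reporter level, so these sizes are not resolved. No 2 mutants had all arrays on opposite sides of T65 for PSY2, D17, D14 or D3.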

How the results depend on the processing

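Of 224 differences of PSY2, D17, D14 and D3 recomputed under other settings, 211 moved by less than the spread between replicates. With arrays centred on the spiked controls PSY2 was -2.21 in gid1-3, -4.66 in gid2-1 and -1.18 in slr1, D14 was 0.15 in gid1-3 and -0.02 in gid2-1, and D3 was 0.12 in gid1-3. With arrays centred on their medians PSY2 was -1.93 in gid1-3, -4.52 in gid2-1 and 2.59 for gid1-3 against gid2-1. After quantile normalization PSY2 was -4.52 in gid2-1 and D14 0.22 in gid1-3. With log2 of signal plus 16 PSY2 was -4.35 in gid2-1 and 2.38 for gid1-3 against gid2-1. Of the other pathway genes, 2 rose in gid1-3 with spiked controls, where ISPG measured -0.03. In slr1, 3 rose with arrays centred on medians or spiked controls or without a trend, and 3 to 5 rose without any 1 array. At a threshold of 2-fold, gid1-3 had 2 higher and 5 lower, gid2-1 had 2 higher and 1 lower, slr1 had 1 higher and 2 lower, and 1 was higher and 5 lower in gid1-3 against gid2-1, since the threshold leaves out smaller changes. The shares of all probe sets called at this threshold and under the other settings were not computed, so these counts have no baseline. The cause of the other shifts was not tested. Of 49 calls, 33 were kept under every other setting of scaling, filter, fit and left-out array, the 2-fold threshold not counted. With the replicate block, 5 rose in gid1-3 instead of 6 (D10L was lost, adjusted p = 0.058). The labels do not pair the replicates: the best-correlated array carried the same number for 4 of 12 arrays. Dim genes, D17, D10L and RFL among them, are limited by signal over background.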
